A study of Mus musculus with 34 samples.

Results

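The regions described here are the most conserved of the distal peaks of tagged transcriptional coactivators in mouse embryos and embryonic stem cells (ESC). They were taken from 10 peak tables that give a conservation score and a distance to the nearest gene for each peak. Of 59888 peaks in those tables, 27093 had a given distance to the nearest gene of more than 10000 bp and were called distal. By the annotation columns some of these lay in introns or coding exons, so the distance is not one to the edge of a gene. The point it is measured from is not stated, and all distances below are values of this column. The 2719 distal peaks with a score of at least 534 formed the top 10% and are called conserved peaks below. They were set against the 8725 distal peaks with a score of 0, called value-0 peaks. The other 15649 distal peaks lay between, and the lowest score above 0 was 237. Conserved peaks reached 774 and had a median of 579, against a median of 309 over all distal peaks. The 37 peaks at 534, just inside the limit, had a median of 30 tags and lay over limb H3K4me1 in 56.8% of cases. The 33 peaks at 533, just outside it, had a median of 22 tags and lay over limb H3K4me1 in 63.6%. The peaks were chosen by their conservation score and distance, so values of these 2 columns are a description only. The tables do not say how the score was made or what a 0 stands for.

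Enhancers are stretches of DNA, often far from the gene they act on, at which transcription factors gather coactivators. Some of them have kept their sequence across vertebrates, and many such conserved elements lie in long, gene-poor stretches around genes for developmental transcription factors. The coactivators mapped here act on chromatin at such sites. SMARCA4 is the ATPase of the SWI/SNF (BAF) remodelling complex, and SMARCC2 is a core subunit of it. EP300 is a histone acetyltransferase that places acetyl groups on lysine 27 of histone H3, and NCOA1 and NCOA2 are coactivators of nuclear receptors. H3K4me1 marks enhancers and the flanks of gene starts, H3K27ac marks active enhancers and gene starts, H3K4me3 marks gene starts, and H3K27me3 is the repressive mark of the Polycomb complexes.

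Each coactivator was mapped once per tissue by chromatin immunoprecipitation and sequencing with an antibody against a FLAG tag knocked into its gene, in embryos of day 11.5 on a 129/C57BL/6 background and in ESC. The 10 tables are SMARCA4 in hindbrain, midbrain, heart and ESC, SMARCC2 in face and hindbrain, EP300 in face and ESC, and NCOA1 and NCOA2 in hindbrain. A further 4 SMARCA4 lists (face, forebrain, limb and neural tube) give positions only and were used as targets of overlap, as were 6 control lists, 7 histone lists and 3 histone inputs. The histone lists come from limb and forebrain of CD1 embryos, so no mark was measured in the tissue of any of the 10 tables. Embryo tissue was pooled from about 150 or 300 embryos, and dissected tissue holds many cell types. All FLAG samples share a genotype label of SMARCA4 knock-in, also where the title names EP300, SMARCC2, NCOA1 or NCOA2. The title of the SMARCA4 hindbrain sample decided its group here, although its tissue label reads forebrain. The description of the SMARCA4 ESC sample speaks of pooled embryos.

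There was 1 library per condition. No replicate check or p-value was therefore possible, and every comparison is between peaks of the same libraries. Shares have exact 95% binomial (Clopper-Pearson) intervals, and differences of shares have 95% Newcombe intervals. Both cover counting error only, and they treat peaks as independent although the 2719 conserved peaks merged into 2258 regions. Library depth is unknown. The authors' median false discovery rate of conserved peaks was 100% in SMARCA4 midbrain and in EP300 face, 22.6% in NCOA1, 5.94% in NCOA2, 0.66% in SMARCA4 heart, 0.675% in SMARCC2 face and 0.04% in SMARCC2 hindbrain. The other 3 tables do not give it.

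Conserved peaks were a larger part of some lists than of others. They made up 16.1% of the distal peaks of SMARCA4 hindbrain (332 of 2058, 95% interval 14.6 to 17.8), where value-0 peaks made up 23.03%. The share was 13.95% in NCOA2 hindbrain (30 of 215), 13.8% in SMARCA4 midbrain (125 of 906) and 13.4% in SMARCC2 face (758 of 5675). It was 10.6% in EP300 ESC (390 of 3662), 8.21% in SMARCA4 heart (613 of 7471), 7.82% in EP300 face (44 of 563) and 7.48% in SMARCA4 ESC (309 of 4130). It was lowest in NCOA1 hindbrain (6.84%, 37 of 541) and SMARCC2 hindbrain (4.33%, 81 of 1872). Those last lists were also the ones with most value-0 peaks, which made up 60.8% of NCOA1 and 55.8% of SMARCC2 hindbrain. SMARCC2 face gave 27.9% and SMARCA4 heart 22.5% of all conserved peaks.

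**Figure D1:**
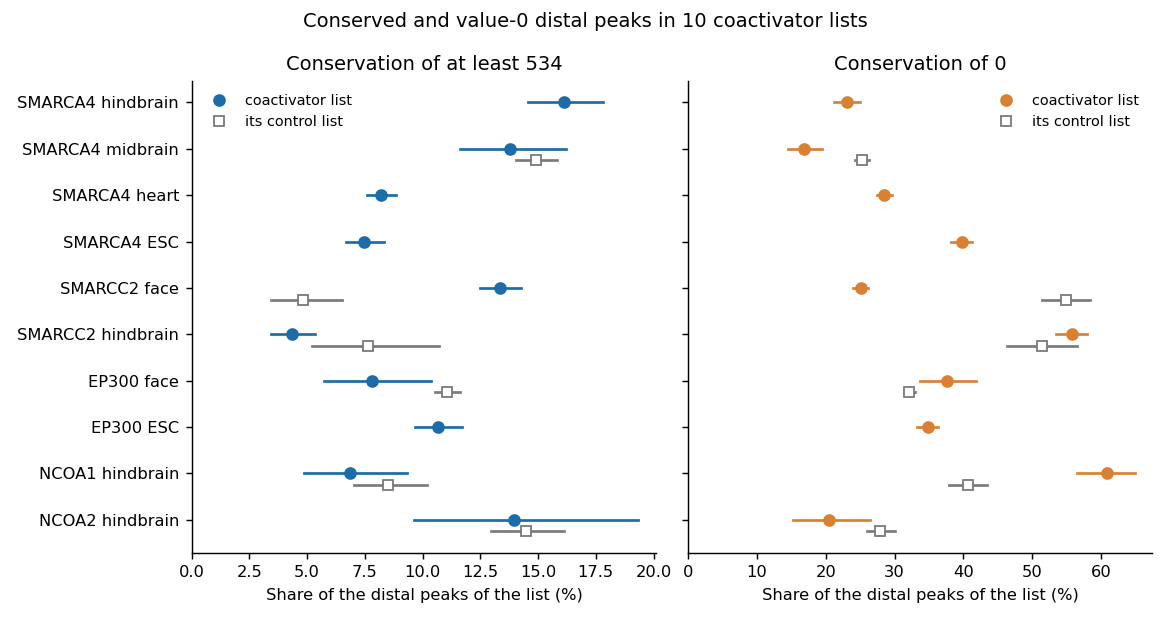
Share of distal peaks with a conservation score of at least 534 (left) and of 0 (right) in each of the 10 coactivator lists (filled circles) and in the 6 matching control lists (open squares), with 95% Clopper-Pearson intervals. SMARCC2 face stood above its control on the left and below it on the right, while SMARCA4 midbrain, SMARCC2 hindbrain, EP300 face, NCOA1 and NCOA2 did not exceed their controls on the left.

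The share of conserved peaks was also measured in the 6 control lists. SMARCA4 hindbrain, heart and ESC and EP300 ESC have no control list here. The control lists differed widely in size. They held 921 peaks for SMARCC2 hindbrain, 1078 for SMARCC2 face and 1990 for NCOA1. For NCOA2, SMARCA4 midbrain and EP300 face they held 6781, 19772 and 28895. Overlaps with own controls are therefore not comparable between pairs, and the part of list size was not tested. SMARCC2 face had 13.4% conserved and 25.1% value-0 peaks, against 4.81% and 54.9% in its control, and these intervals did not overlap. In the 5 other pairs the coactivator list did not have the larger conserved share. SMARCA4 midbrain had 13.8% against 14.9% in its control, NCOA2 13.95% against 14.5%, NCOA1 6.84% against 8.52%, SMARCC2 hindbrain 4.33% against 7.63%, and EP300 face 7.82% against 11.1%. The intervals of list and control overlapped in 4 of these 5 pairs and did not in EP300 face (5.74 to 10.4 against 10.54 to 11.6). A peak of the list's own control lay over 22.7% of conserved (10 of 44) and 2.83% of value-0 peaks (6 of 212) in EP300 face, with intervals that did not overlap. It lay over 16.7% (5 of 30) and 2.27% (1 of 44) in NCOA2, and over 6.40% (8 of 125) and 1.96% (3 of 153) in SMARCA4 midbrain, with overlapping intervals in both. In SMARCC2 face it lay over 0.264% of conserved (2 of 758) and 0.281% of value-0 peaks (4 of 1422). In NCOA1 0 of 37 conserved and 0 of 329 value-0 peaks did so, with upper interval limits of 9.49% and 1.11%. In SMARCC2 hindbrain 0 of 81 and 0 of 1044 did so, with upper limits of 4.45% and 0.353%. Proximal peaks of the same 10 tables, at 10000 bp or less, reached a score of 534 in 15.01% of cases and had a score of 0 in 12.2%.

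Conserved peaks did not hold more tags than value-0 peaks in most lists. The median tag count was higher in 4 lists, equal in 3 and lower in 3, and the ratio of medians had a median of 1.00 over the lists. In SMARCA4 heart, conserved peaks held 15 to 216 tags with a median of 33, and value-0 peaks 15 to 297 with a median of 33. In SMARCC2 face, conserved peaks held 31 to 951 tags with a median of 81, and value-0 peaks 32 to 976 with a median of 88. The ranges overlapped almost wholly in both lists. SMARCA4 hindbrain was different, with 9 to 144 tags and a median of 17 in conserved peaks, against 9 to 83 and a median of 12 in value-0 peaks. NCOA2 hindbrain had the largest gap, with a median of 26.5 tags in 30 conserved peaks and of 10 tags in 44 value-0 peaks. The authors' fold enrichment went the other way there, with medians of 7.855 in conserved and 13.965 in value-0 peaks. In SMARCA4 hindbrain the fold medians were 9.7 and 9.875. Over the lists, median fold enrichment was higher in conserved peaks in 6 and lower in 4. In SMARCA4 ESC the medians were 8 and 9 tags, and in EP300 ESC 6 and 6. SMARCA4 midbrain (medians of 26 and 24 tags) and EP300 face (15.5 and 15) were both among the 4 lists with the higher median. Leaving out these lists, whose false discovery rates were high, left 2 lists with more tags in conserved peaks. Their removal alone lowers this count, so it says nothing about false discovery rates. Leaving out SMARCA4 midbrain alone also left 2. Among peaks with a score of at least 100 on the authors' p-value scale, with the top 10% taken anew, 8 lists had the higher median in conserved peaks. Some lists hold few peaks of that score. Of the conserved peaks above, those of NCOA1 reached at most 89.23, and those of SMARCC2 hindbrain had an upper quartile of 69.71.

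Conserved peaks were wider by the median in 7 lists and narrower in 3. Conserved and value-0 peaks had median widths of 910 and 435 bp in NCOA2, of 328.5 and 246.5 bp in SMARCA4 hindbrain, and of 326 and 320 bp in SMARCA4 heart. In SMARCC2 face, where peaks were widest, conserved peaks had a median width of 1506.5 bp and value-0 peaks of 1600.5 bp. The part of width in the shares below was not tested. The 7 marks, recurrence and controls are also given within lists, and the other shares are pooled.

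**Figure D2:**
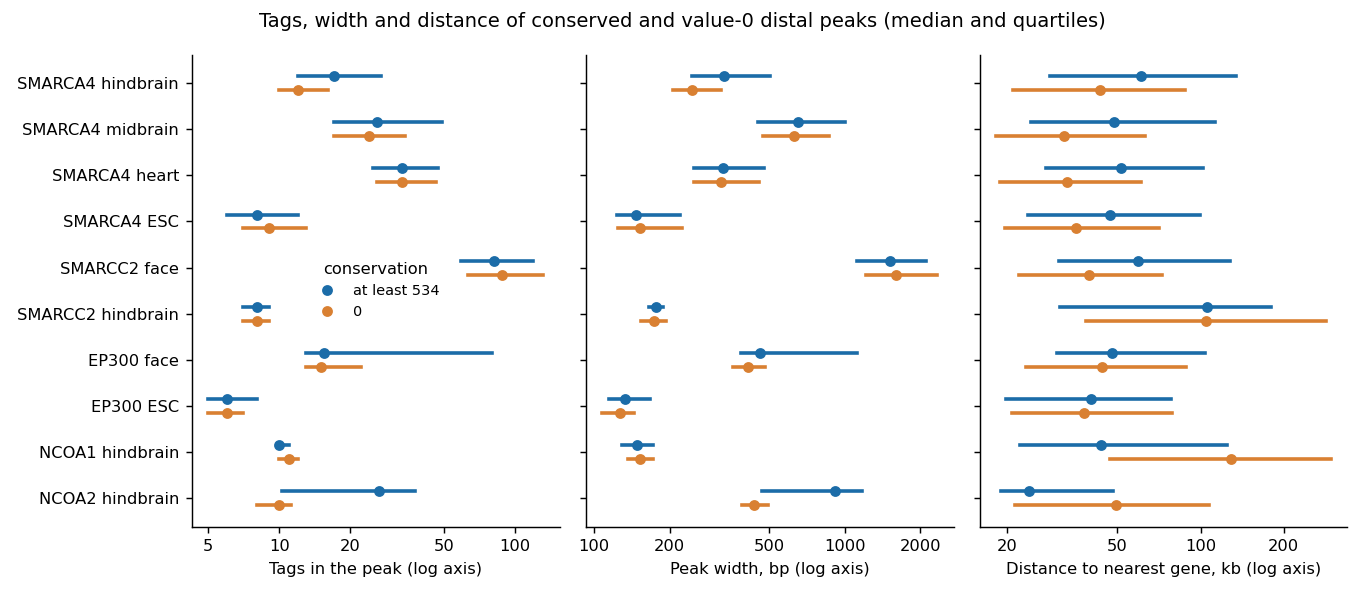
Median (circle) and quartiles (line) of tags per peak, peak width and distance to the nearest gene, on log axes, for conserved and value-0 distal peaks of each list. Median tags were 17 and 12 in SMARCA4 hindbrain and 26.5 and 10 in NCOA2, and conserved peaks had the larger median distance in 8 of 10 lists.

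Within the distal peaks, conserved ones had still larger distances to the nearest gene in most lists. The median distance was 51.7 kb for conserved and 32.9 kb for value-0 peaks of SMARCA4 heart, and 59.6 kb against 39.6 kb in SMARCC2 face. Conserved peaks had the larger median in 8 of 10 lists. NCOA1 had 43.6 kb against 129 kb and NCOA2 23.9 kb against 49.4 kb, so both went the other way. Over all lists 52.4% of conserved and 42.1% of value-0 peaks had a distance of more than 50000 bp. By the tables' annotation columns, whose short names are read here as they stand, 55.3% of the bases of conserved peaks and 48.8% of those of value-0 peaks were intergenic, and 26.9% and 32.3% intronic. Coding exons were touched by 5.85% of conserved peaks (159 of 2719) and 0.149% of value-0 peaks (13 of 8725), where 1.82% of all distal peaks touched one. EP300 ESC gave 58 of those 159, a share of 14.9% of its conserved peaks, and without this list the difference was 4.30 points rather than 5.70.

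Every histone mark was found at a larger share of conserved than of value-0 peaks. Limb H3K4me1 lay over 61.4% of conserved peaks (1669 of 2719, 95% interval 59.5 to 63.2) and 32.4% of value-0 peaks (2830 of 8725, 31.5 to 33.4), against 48.6% of all distal peaks. Forebrain H3K4me1 lay over 59.3% of conserved peaks (57.4 to 61.1) and 20.7% of value-0 peaks (19.9 to 21.6), against 37.1% of all. The forebrain difference of 38.5 points (36.5 to 40.6) was thus wider than the limb difference of 28.9 points (26.9 to 31.0). Both tissues carried H3K4me1 at 48.9% of conserved and 16.8% of value-0 peaks (31.0% of all distal peaks). Forebrain alone carried it at 10.4% of conserved and 3.97% of value-0 peaks (6.09% of all). Limb alone carried it at 12.5% of conserved and 15.7% of value-0 peaks (17.5% of all), so H3K4me1 confined to limb was the one H3K4me1 pattern with a lower pooled share at conserved peaks, by a difference of -3.15 points (-4.57 to -1.66).

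The active mark H3K27ac, measured in limb only, lay over 19.9% of conserved peaks (540, interval 18.4 to 21.4) and 7.46% of value-0 peaks (6.92 to 8.03), against 15.3% of all distal peaks. H3K4me3 lay over 28.8% of conserved and 7.94% of value-0 peaks in limb (17.7% of all distal peaks), and over 23.4% and 5.36% in forebrain (12.9% of all). In 1 tissue or the other H3K4me3 was found at 32.5% of conserved and 8.70% of value-0 peaks (19.4% of all). Every one of these peaks had a given distance of more than 10000 bp, which does not place it outside genes. The Polycomb mark H3K27me3 lay over 21% of conserved peaks (571, 19.5 to 22.6) and 5.13% of value-0 peaks (4.68 to 5.62) in limb, against 10.1% of all distal peaks. In forebrain it lay over 10.1% of conserved and 2.02% of value-0 peaks (4.08% of all distal peaks), a difference of 8.06 points that was 4.91 points without SMARCC2 face. Limb H3K27me3 and H3K4me3 lay together at 12.98% of conserved and 2.20% of value-0 peaks (5.72% of all). None of the 7 marks lay over 25.8% of conserved and 61.4% of value-0 peaks (43.2% of all).

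The marks did not climb alike along the conservation scale. From scores of 0 through 237 to 315, 318 to 415 and 416 to 533 up to 534 and above, limb H3K27me3 lay over 5.13%, 7.84%, 10.8%, 14.1% and 21% of peaks. Each of these shares lay outside the intervals of its neighbours, and the last step was the tallest. Forebrain H3K27me3 stood at 10.1% above the limit and at 5.29% in the step below it. Limb H3K27ac lay over 7.46%, 13.3%, 21.3%, 22.3% and 19.9%, so it levelled off in the third step and conserved peaks did not exceed the peaks just below them. Limb H3K4me1 likewise levelled off, at 58.5%, 60.2% and 61.4% in the upper 3 steps, with overlapping intervals in the last 2. Forebrain H3K4me1 went on climbing, at 44.1%, 49.6% and 59.3% in the same steps.

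**Figure D3:**
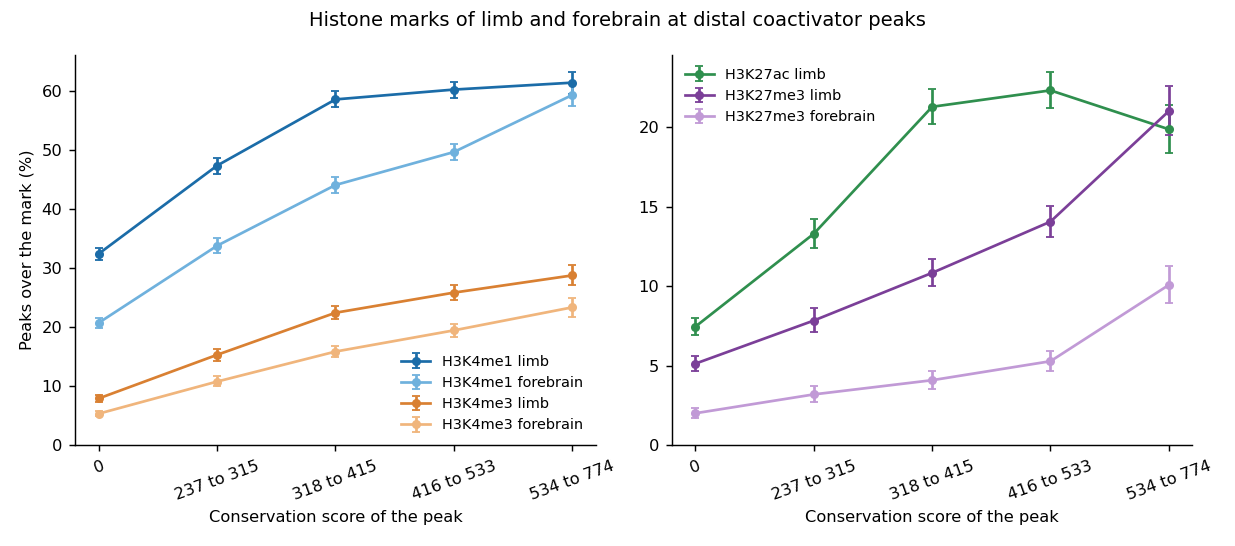
Share of distal peaks over each histone mark (with 95% Clopper-Pearson intervals) in 5 steps of the conservation score, pooled over the 10 lists. Limb H3K27ac levels off at about 21.3% to 22.3% and stands at 19.9% in conserved peaks, while limb H3K27me3 climbs at every step to 21%.

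Within lists these step patterns held in part. Limb H3K27me3 climbed at every step in 6 of 10 lists and not in SMARCA4 midbrain, SMARCC2 hindbrain, NCOA1 or NCOA2. Limb H3K27ac was lower in conserved peaks than in the step below in 8 lists and higher in EP300 face and SMARCC2 hindbrain. Limb H3K4me1, forebrain H3K4me1, H3K27ac, both H3K4me3 lists and limb H3K27me3 were each more frequent at conserved than at value-0 peaks in 10 of 10 lists. For limb H3K27me3, forebrain H3K4me1 and both H3K4me3 marks the interval of the difference lay above 0 in all 10. Forebrain H3K27me3 was higher in 9 lists, and NCOA1, with 0 of 37 conserved and 1 of 329 value-0 peaks, was the exception. The levels differed widely between lists. Limb H3K4me1 lay over 86.3% of conserved and 74.7% of value-0 peaks of SMARCC2 face, over 70.2% and 29.3% in SMARCA4 hindbrain, and over 13.6% and 2.20% in SMARCC2 hindbrain. In NCOA1 it lay over 1 of 37 conserved and 6 of 329 value-0 peaks, a difference that counting error covers. Set against distal peaks of middle score, conserved peaks had the larger share of limb H3K27me3 in all 10 lists, with the interval above 0 in 7. For limb H3K27ac they had the larger share in 6, with the interval above 0 in 1 and below 0 in 1.

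**Figure D4:**
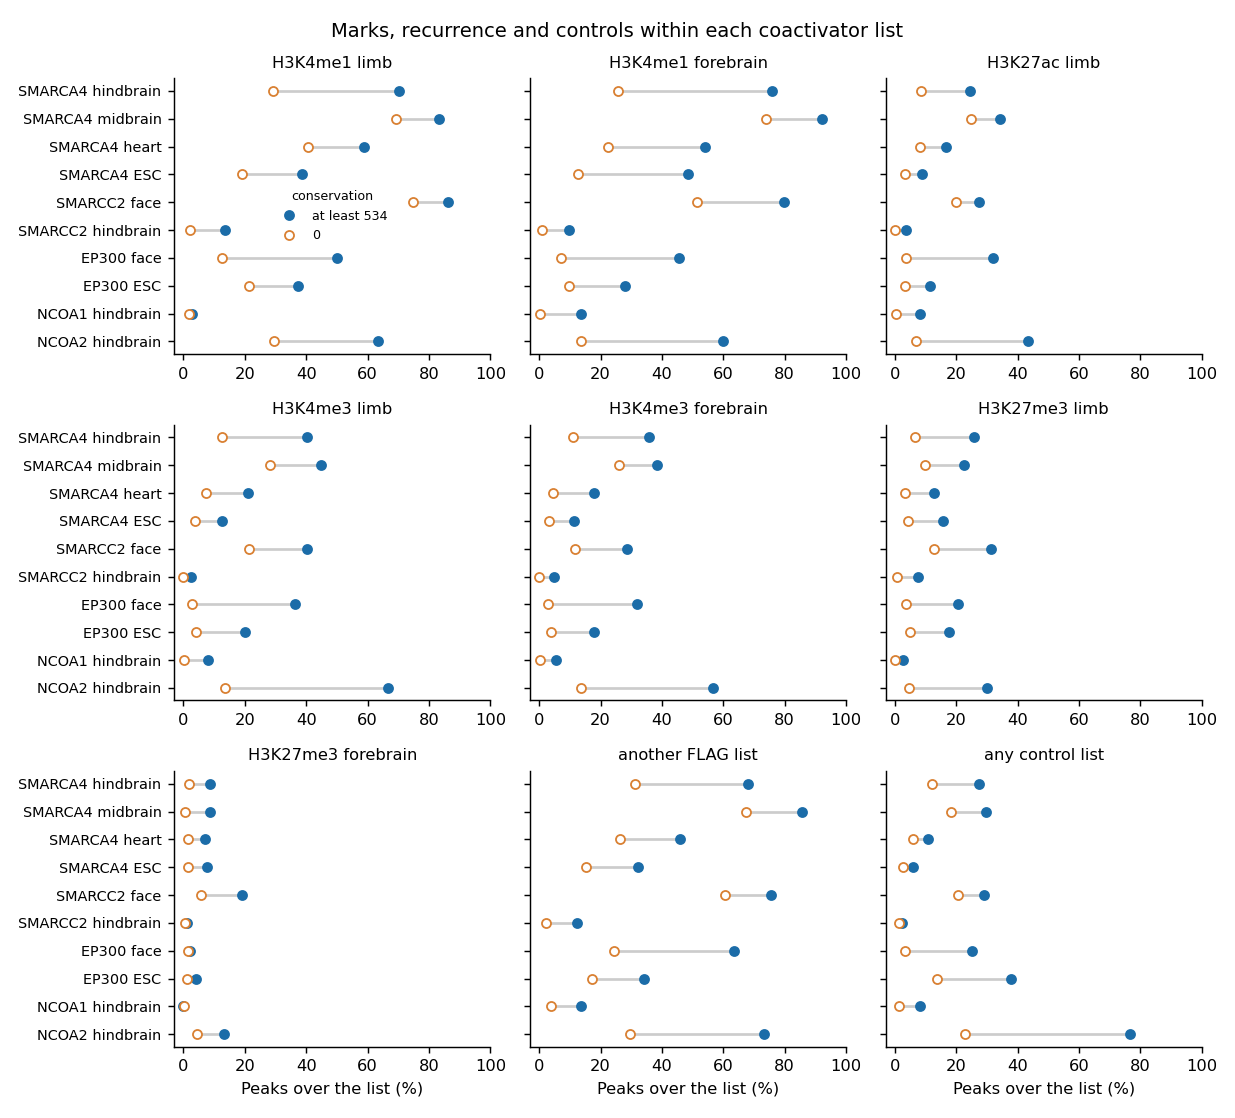
Share of conserved (filled) and value-0 (open) distal peaks of each list that overlap, by at least 1 bp, each of 7 histone lists, a peak of another FLAG list and a peak of any control list. The filled circle lies to the right of the open one in every panel and list except NCOA1 for forebrain H3K27me3.

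Peaks over H3K4me3 and away from it were also compared apart. Over H3K4me3 of limb or forebrain, 42.0% of 885 conserved and 44.3% of 759 value-0 peaks carried limb H3K27ac, and 91.3% and 93.4% carried limb H3K4me1, with overlapping intervals for both marks. Limb H3K27me3 was found at 44.0% of these conserved peaks (40.7 to 47.3) and 27.1% of these value-0 peaks (24.01 to 30.5), and a control peak at 47.01% and 34.7%. Away from H3K4me3, 46.9% of 1834 conserved and 26.6% of 7966 value-0 peaks carried limb H3K4me1, and 44.8% and 14.96% carried it in forebrain. Limb H3K27ac was found there at 9.16% of conserved and 3.95% of value-0 peaks, and limb H3K27me3 at 9.92% and 3.04%.

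Conserved peaks recurred across libraries more often than value-0 peaks. A peak of at least 1 other FLAG list lay over 54.7% of them (1486, interval 52.8 to 56.5) and over 25.8% of value-0 peaks (24.9 to 26.7), against 40.4% of all distal peaks. The difference was positive in 10 of 10 lists and ranged over 9.56 to 43.8 points. It was 16.6 points for peaks away from H3K4me3. Peaks with scores of 416 to 533 recurred in 52.0% of cases (50.7 to 53.4), an interval that overlapped that of conserved peaks. Against distal peaks of middle score, conserved peaks had the larger share in 9 of 10 lists, with the interval above 0 in 4. Peaks of 3 or more other lists lay over 21.9% of conserved and 5.62% of value-0 peaks. SMARCA4 face, which is among the targets with positions only, lay over 42.8% of conserved and 16.9% of value-0 peaks. SMARCC2 face lay over 23.9% of conserved and 6.93% of value-0 peaks of the 9 other lists. By contrast, SMARCA4 ESC lay over 4.02% of conserved and 3.47% of value-0 peaks of the other lists, with an interval of the difference that included 0. The ESC lists of SMARCA4 and EP300 shared few distal peaks of either kind. An EP300 peak of ESC lay over 1.29% of conserved (4 of 309) and 1.89% of value-0 SMARCA4 peaks of ESC (31 of 1641). A SMARCA4 peak of ESC lay over 1.03% of conserved (4 of 390) and 2.20% of value-0 EP300 peaks of ESC (28 of 1275).

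Control peaks, too, were found more often at conserved than at value-0 peaks. Any of the 6 control lists lay over 22.8% of conserved peaks (620, 21.2 to 24.4) and 8.68% of value-0 peaks (8.09 to 9.29), against 15.2% of all distal peaks. It was higher for conserved peaks in 10 of 10 lists, at up to 76.7% (23 of 30) in NCOA2 against 22.7% of its value-0 peaks. In EP300 ESC it was 37.9% of conserved and 13.9% of value-0 peaks, and in SMARCA4 ESC 5.83% and 2.56%. The control of EP300 face alone lay over 15.4% of conserved and 6.16% of value-0 peaks, and that of SMARCA4 midbrain over 13.98% and 3.68%. Histone inputs lay over 0.368% of conserved and 0.470% of value-0 peaks (0.436% of all). With all peaks over a control or input left out, recurrence still differed by 24.3 points and limb H3K27me3 by 10.4 points, against 15.9 points with them. The part of the controls in these differences was not tested beyond this.

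Merged across tables, 347 of 2258 conserved regions (15.4%) were built from 2 or more tables, against 416 of 8208 value-0 regions (5.07%). A total of 183 conserved regions (8.10%) and 148 value-0 regions (1.80%) lay in 5 or more of the 14 FLAG lists. The most recurrent conserved region, at chr7:16631345-16633456 (mm9) and 24.6 kb from Zfp541, a zinc finger gene, lay in 10 FLAG lists, in 2 control lists, and over H3K4me1 and H3K4me3 of both tissues and limb H3K27ac. Next came 3 regions in 9 lists each. One lay 39.9 kb from Itpr1, the type 1 receptor for inositol trisphosphate, at chr6:108405722-108408025, with the same 5 marks and no control peak. The others lay near 2410025L10Rik at chr5:110876584-110877900 and near Macf at chr4:123088603-123089977. The remaining 6 of the 10 most recurrent regions were in 8 lists each and lay nearest to Bach2, Sox13, DQ716672, 1700067P10Rik, Cxxc5 and Smad5. Bach2 encodes a leucine zipper repressor, Sox13 a factor of the SOX family, and Smad5 a signal transducer of bone morphogenetic proteins. The Smad5 region carried H3K4me1, H3K4me3 and H3K27me3 of both tissues and no limb H3K27ac. Of these 10 regions, 9 lay over a control peak.

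The conserved peak with the most tags differed between lists. In SMARCA4 hindbrain and midbrain it was the Sox13 region, with 144 tags at chr1:135388551-135390450 and 178 tags at chr1:135388386-135390852. In SMARCA4 heart it held 216 tags at chr13:100007851-100009576, 54.7 kb from Zfp366, and in SMARCC2 face 951 tags over 12353 bp, 35.7 kb from Ahdc1 on chromosome 4. SMARCA4 ESC (67 tags, 70.8-fold enrichment in the authors' table), EP300 ESC (62 tags, 67.3-fold) and EP300 face (262 tags, 89.8-fold) had it in the same place, chr2:32873324-32874574, 36.2 kb from the gene named GLUTX1. That region lay in 6 FLAG lists, in 0 control lists and over none of the 7 marks. The leading peaks of the other lists lay near Bnc2 (SMARCC2 hindbrain, 16 tags), Urm1 (NCOA1, 43 tags) and AK219068 (NCOA2, 84 tags).

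Genes of developmental transcription factors were more often nearest to conserved than to value-0 peaks. All gene lists were chosen with earlier results of these data known, so their shares are a description only. A list of 243 such genes, of which 174 were nearest to some distal peak, was nearest to 11.5% of conserved peaks (313, interval 10.3 to 12.8) and 2.09% of value-0 peaks (182, 1.80 to 2.41), against 3.67% of all distal peaks. The share was higher for conserved peaks in 10 of 10 lists, at 14.4% against 2.11% in SMARCC2 face, 12.1% against 2.11% in SMARCA4 heart and 11.3% against 1.95% in SMARCA4 ESC. In NCOA1 only 1 of 37 conserved peaks and 4 of 329 value-0 peaks lay nearest to one. Genes of brain and neural tube were nearest to 1.73% of conserved (47) and 0.160% of value-0 peaks (14), against 0.465% of all distal peaks. These were 9 of 309 conserved peaks of SMARCA4 ESC (2.91%) and 17 of 758 of SMARCC2 face (2.24%). They were 6 of 332 in SMARCA4 hindbrain (1.81%) and 2 of 125 in SMARCA4 midbrain (1.60%), and the intervals of these shares overlapped. Many genes of the brain and neural tube list are transcription factors that the first list holds too.

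Other gene lists were nearest to few peaks of either kind. Genes of face and limb mesenchyme stood at 0.662% of conserved and 0.183% of value-0 peaks (0.262% of all). Signalling ligands, receptors and antagonists stood at 1.62% and 0.779% (1.17% of all), and pluripotency genes at 0.662% and 0.287% (0.424% of all). Heart genes stood at 0.478% and 0.241% (0.303% of all), and endothelial genes at 0.221% and 0.0688% (0.144% of all). Erythroid genes were nearest to 2 conserved and 2 value-0 peaks (0.0258% of all), and housekeeping genes to 1 conserved and 9 value-0 peaks (0.107% of all). Genes of axon guidance and neuronal adhesion went the other way, at 0.662% of conserved and 1.07% of value-0 peaks (0.934% of all), with an interval of the difference that included 0. Among peaks with a score of at least 100 on the authors' p-value scale, the signalling, heart, pluripotency and endothelial lists changed sign.

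The 2258 conserved regions had 1458 nearest genes, of which 1083 matched a RefSeq gene (GRCm38.p6) on the same chromosome. Zfp608, a zinc finger gene on chromosome 18, had the most, with 19 regions against 3 value-0 regions. They spread over 934 kb, at 22.97 to 701 kb from the gene, and 17 of them lay over forebrain H3K4me1, 14 over limb H3K4me1, 2 over limb H3K27ac and 0 over H3K27me3. SMARCA4 heart gave 10 of the peaks behind them, and 9 regions were left without that list. Nfib, a nuclear factor I gene, had 12 conserved and 4 value-0 regions, and without SMARCA4 heart 6 conserved ones. Foxp1, a forkhead factor gene, and Zfp521, a zinc finger gene, had 10 each, with 2 and 3 value-0 regions. Without SMARCA4 heart they had 4 and 6.

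**Figure D5:**
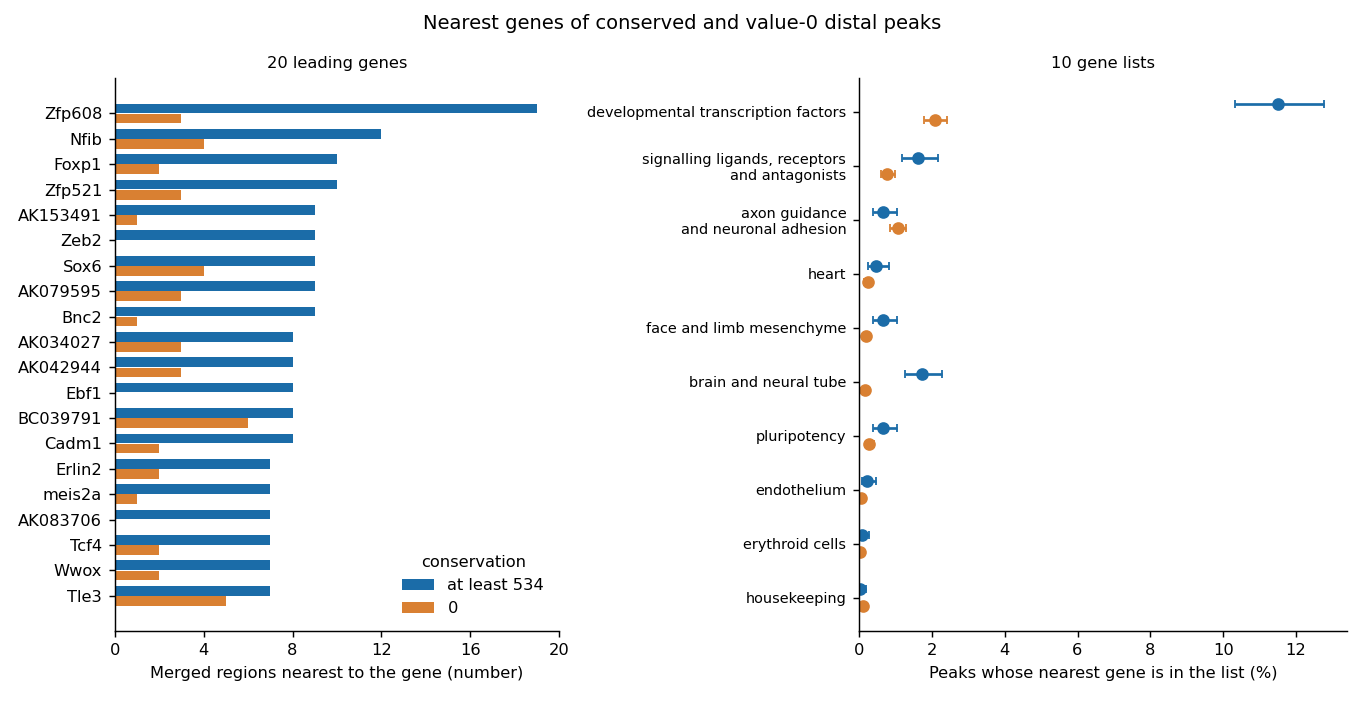
Left, number of merged conserved and value-0 regions nearest to each of the 20 genes with the most conserved regions. Right, share of conserved and value-0 distal peaks whose nearest gene is in each of 10 gene lists, with 95% Clopper-Pearson intervals. Zfp608 leads with 19 and 3 regions, and developmental transcription factors stand at 11.5% and 2.09%.

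Of the 20 leading genes, those with 9 conserved regions were AK153491, Zeb2, Sox6, AK079595 and Bnc2. Zeb2, a zinc finger homeobox repressor, had 9 of its 11 distal peaks conserved and 0 at value 0. The regions lay within 78.4 kb on chromosome 2, and 8 of them were over forebrain H3K4me1, 5 over limb H3K4me1 and 0 over limb H3K27ac. SMARCA4 heart gave 6 of these 9 peaks, and 3 regions were left without it. Sox6, a SOX factor gene, had 9 conserved and 4 value-0 regions, and 8 conserved ones lay over forebrain H3K4me1. Without SMARCC2 face it had 4. AK079595 on chromosome 13 had 6 of 9 regions over limb H3K27me3, and Erlin2, which encodes a protein of the endoplasmic reticulum, 6 of 7. The share over all conserved peaks was 21%, counted per peak, while merged regions can be wider. Of the same 20 genes, Nfib, Zfp521, Cadm1, Tcf4 and AK083706 were among those with 0 conserved regions over H3K27me3 of either tissue. The gene named meis2a, on chromosome 2, had 5 of 7 regions over each of limb H3K27me3, limb H3K4me3, forebrain H3K27me3 and forebrain H3K4me3, counted separately, and 0 over limb H3K27ac. Ebf1, a helix-loop-helix factor gene, and AK083706 had 8 and 7 conserved regions and no value-0 region. The others were AK034027, AK042944, BC039791, Cadm1, Tcf4, Wwox and Tle3. Without SMARCC2 face, AK153491, Bnc2 and Cadm1 had 5 conserved regions each, AK034027 had 4, and Erlin2 and Wwox had 3 each. Without SMARCA4 heart, Tcf4, a helix-loop-helix factor gene, had 3.

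Among the transcription factors of brain and neural tube, Irx3 and Six3, both homeobox genes, had 5 conserved regions each, with 3 and 2 value-0 regions. Of the conserved regions of Six3, 4 lay over H3K4me1, H3K4me3 and H3K27me3 in limb and 4 over forebrain H3K4me3. Sox2, a SOX factor of neural progenitors and pluripotent cells, had 5 of 5 distal peaks conserved, merged into 3 regions within 26.5 kb on chromosome 3, and all 3 lay over limb H3K27me3 and forebrain H3K4me1. They came from SMARCC2 face (2 peaks), SMARCC2 hindbrain, SMARCA4 ESC and SMARCA4 heart. Pax2, a paired box factor of the midbrain to hindbrain border and the kidney, had 3 conserved regions and 1 value-0 region. All 3 conserved ones lay over limb H3K27me3 and forebrain H3K4me1. Lbx1 had 4 conserved and 0 value-0 regions.

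Of face and limb genes, Tcfap2a (Tfap2a in RefSeq), a factor of neural crest and face, had 3 conserved regions, Lmx1b and Msx1 2 each, and Gli3, a transcription factor of Hedgehog signalling, 1. Tcfap2a and Msx1 had 1 value-0 region each, and Lmx1b and Gli3 had 0. The conserved Msx1 regions, 69.8 and 93.5 kb from this homeobox gene, both lay over limb H3K4me1, H3K4me3 and H3K27me3. The Gli3 region, at chr13:15635641-15637879 in SMARCC2 face, held 127 tags and lay over H3K4me1 of both tissues only. Of heart genes, Irx4 had 4 conserved and 2 value-0 regions, Gata4 2 and 1, and Mef2c and Tbx20 1 and 1 each. SMARCA4 heart gave 1 of the 4 conserved Irx4 peaks, a peak in both conserved Gata4 regions and the conserved Mef2c and Tbx20 peaks. In all it gave 6 of the 13 conserved peaks nearest to heart genes. Of signalling genes, Gas1 and Smad7 had 3 conserved and 0 value-0 regions each, and Epha4 3 and 1. Of pluripotency genes, Mycn had 4 conserved and 5 value-0 regions, and of axon guidance genes Nrp2 had 4 and 2. Ets1 led the endothelial list with 3 and 2. Some other leaders of the heart, pluripotency, axon guidance and endothelial lists had more value-0 than conserved regions. Examples were Jarid2 (2 conserved and 3 value-0), Cdh2 (2 and 3) and Erg (1 and 2).

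The 10 highest scores were those of peaks near Mogat2, Foxp1, Irx1, AK039417, Ptbp2, Cdca7, Gli3, AK153491, AK043679 and Dupd1. The top one, at 774, was a SMARCA4 ESC peak of 154 bp and 7 tags, 10.9 kb from Mogat2, at chr7:106397951-106398104. The Foxp1 peak (761) was a SMARCA4 heart peak of 21 tags at chr6:98964322-98964549, over H3K4me1 of both tissues and limb H3K27me3. The Irx1 peak (758) held 87 tags in SMARCC2 face, 66.2 kb from this homeobox gene, over forebrain H3K4me1 and limb H3K27me3.

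The 8208 value-0 regions had 4756 nearest genes, and 761 genes were nearest to both kinds, 52.2% of the genes of conserved regions and 16% of those of value-0 regions. Magi1, a scaffold of cell junctions, had 2 conserved and 17 value-0 regions. Med13l, of the Mediator complex, had 2 and 13. Trio, a guanine nucleotide exchange factor, and Sulf2, an extracellular sulfatase, had 0 and 13 each, and Chd7, a chromatin remodeller, had 4 and 12. Tns3 had 0 conserved and 12 value-0 regions. Ppp1r9a, Ror2, Sept9 and Arid1b, itself a SWI/SNF subunit gene, had 11 value-0 regions each, and 0, 1, 2 and 3 conserved ones.

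Chromosomes differed in the share of distal peaks that were conserved. It was highest on chromosome 18 (14.3%, 154 of 1080, interval 12.2 to 16.5) and chromosome 4 (13.8%, 253 of 1832) and lowest on chromosome 15 (4.09%, 43 of 1052, 2.97 to 5.47). Value-0 peaks made up 31.2% of distal peaks on chromosome 18 and 38.2% on chromosome 15.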

How the data were processed

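Peak lists of 30 of 34 samples were used, and each list belongs to 1 library. The submitters' processing notes name BWA and the mm9 build. A peak caller is not given in the sources used here. Per the file headers, 16 tables give each peak's count of tags, a score of −10·log10(p), a fold enrichment ratio, a conservation score, the nearest gene and its distance, and in 7 of the 10 tables used a false discovery rate in percent. These are the authors' deposited values, and they were used to describe, rank and filter peaks, with the conservation limit set over all 10 lists. The lowest deposited score of p was 50. The other 14 lists hold positions. No column of a sample was left unused for want of a label (0 columns).

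Distal peaks (over 10000 bp) of the 10 tables were pooled, and the top 10% by conservation were kept. The members and gene lists were chosen with earlier results of these data known. Overlap meant at least 1 bp, and overlapping peaks were merged into regions. Starts are printed 1-based. Gene names are the authors', matched to RefSeq (GRCm38.p6) for names only. Genes were named by rule: the 20 with most conserved and the 10 with most value-0 regions, those at the most tags per list, at the 10 highest scores and at the 10 most recurrent regions, and up to 5 leaders per gene list, of which 1 is not reported here. Scripts for overlap and intervals were tested on simulated data. Alternatives were other limits of conservation, distance and score, other overlap rules, equal weights, leaving out peaks over controls or H3K4me3, and leaving out lists. Leaving out SMARCA4 midbrain and EP300 face together was chosen after seeing the data. Python 3.11.15, numpy 2.4.6, pandas 2.3.3 and scipy 1.17.1 were used.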

Additional observations from a re-analysis of the deposited data

Results flagged for a closer look

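The gap in tags between conserved and value-0 peaks differed in direction between tissues of the same tagged protein. For SMARCA4, the median of conserved minus value-0 peaks was 5 tags in hindbrain, 2 in midbrain, 0 in heart (33 and 33 tags) and -1 in ESC. For distance in hindbrain, it was 17920.5 bp for SMARCA4 and 700 bp for SMARCC2, and -85373 bp for NCOA1 and -25500 bp for NCOA2. NCOA1 and NCOA2 rest on 37 and 30 conserved peaks. With 1 library each, these differences between lists were not tested.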

How the results depend on the processing

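Each value here is the conserved minus value-0 difference in percentage points unless named otherwise, and marks are given as limb, then forebrain. All pooled differences for the 7 marks, recurrence, controls and developmental transcription factors stayed positive under every alternative run. Taking the top 10% within each list gave H3K4me1 23.3 and 32.9, H3K27ac 10.1, H3K4me3 17.1 and 14.4, H3K27me3 13.3 and 6.90, recurrence 22.7 and controls 10.52. The top 5% (1369 peaks) gave H3K4me1 32.0 and 45.0, H3K27me3 19.2 and 10.7, recurrence 31.2 and transcription factors 12.4. A distance over 50000 bp (1169 peaks) gave H3K4me1 35.8 and 46.2, limb H3K4me3 22.9, recurrence 34.4 and controls 12.03. A score of at least 100 (431 peaks) gave 8 lists with more tags, limb H3K4me1 22.3, H3K4me3 26.2 and 24.4, H3K27me3 18.9 and 12.9, and recurrence 23.1. There the signalling, heart, pluripotency and endothelial lists turned to -0.043, -0.25, -0.45 and -0.097. Without peaks over controls or inputs, 2 lists had more tags, and values were H3K27ac 9.67, H3K4me3 12.97 and 10.9, H3K27me3 10.4 and 5.81, and recurrence 24.3. Without peaks over H3K4me3, 2 lists had more tags, and values were H3K4me1 19.9 and 28.8, H3K27ac 4.89, H3K27me3 6.21 and 3.75, recurrence 16.6, controls 5.403 and transcription factors 7.64. Counting the summit base only gave forebrain H3K27me3 4.83 and controls 10.4. An overlap of 50% of the peak gave H3K27ac 10.6, limb H3K4me3 18.4, forebrain H3K27me3 4.36, recurrence 25.8 and controls 7.71. Equal weight per list gave H3K4me1 20.3 and 28.9, H3K27me3 13.5 and 5.31, and recurrence 22.6. Without SMARCA4 midbrain and EP300 face, both themselves among the 4 lists with more tags, 2 lists had more tags. The causes were not tested.

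Leaving out each list in turn left 1966 to 2689 conserved peaks and 2 to 4 lists with more tags. Limb H3K4me1 ranged over 26.6 to 32.9, forebrain H3K4me1 over 36.2 to 41.8, H3K27ac over 11.9 to 13.8, limb H3K4me3 over 19.1 to 23.4 and forebrain H3K4me3 over 16.5 to 19.4. Limb H3K27me3 ranged over 12.7 to 18.2, forebrain H3K27me3 over 4.91 to 9.14, recurrence over 27.3 to 32.1, controls over 12.5 to 16.6 and transcription factors over 7.68 to 9.97. No paired analysis was possible because each condition has 1 library. Depth is unknown, and small lists such as NCOA1 and NCOA2 limit their own shares.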
